A study of Mus musculus with 3 samples.

Results

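*Klf2* and 6 genes of lymphocyte egress, homing and survival were followed in RNA-seq libraries of follicular regulatory T (TFR) cells: *Klf2*, *Klf3*, *S1pr1*, *S1pr4*, *Cd69*, *Ccr7* and *Il7r*. The 7 genes were chosen by name, with earlier results of these data known, from the 25759 genes listed for each library. All 7 were found with reads in every library. The shares over all expressed genes given below stand beside their counts as a description and are not a test. TFR cells are Foxp3+ regulatory T cells that carry the follicle-homing receptor CXCR5 and restrain germinal centres. C57BL/6J mice received 125 µg NP-KLH in alum, were boosted on day 7, and on day 10 their spleen and mLN gave the sorted B220- CD4+ Blimp-GFP+ CXCR5+ GITRhi cells.

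The library labelled N came from Nfatc1fl/fl.Prdm1gfp/+.FIC mice, and is called NFATc1-deficient. The library labelled αA came from Nfatc1caaA.Prdm1gfp/+.FIC mice, which overexpress constitutively active NFATc1/αA. The library labelled PαA came from Nfatc1caaA.Prdm1gfp/fl.FIC mice, in which Blimp-1, the product of *Prdm1*, is lost as well. FIC is a Cre recombinase made from the *Foxp3* locus, whose activity the study also saw in some T cells without Foxp3. All 3 genotypes carried FIC and 1 *Prdm1* gfp allele, no library came from wild-type mice, and Foxp3 itself was not part of the sort gate. There was 1 library per genotype and the number of mice behind it is not given in the sources used here, so no spread between mice can be stated, no test was possible, and every difference below is one between libraries.

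The libraries held 23269443 to 27637953 exon reads. *Nfatc1* had 63.6 RPKM (exon reads scaled to the exon length of the gene and the total reads of the library) in N, 62.9 in αA and 32.4 in PαA, an order that goes against the labels. These values are totals over the gene and do not show single exons, so they cannot judge the labels. Each library is named by its label alone. *Prdm1* had 25.6, 24.9 and 10.0 RPKM in N, αA and PαA, and was thus lowest in the library labelled as lacking Blimp-1. The markers behind the sort and the T cell identity were present: *Cd4* had 488, 396 and 341 RPKM, *Cxcr5* 48.3, 81.3 and 47.6, *Tnfrsf18*, which encodes GITR, 303, 217 and 145, and *Foxp3* 32.7, 20.9 and 15.3, in the order N, αA, PαA. *Foxp3* and *Tnfrsf18* were thus lowest in PαA, the library in which most of the 7 genes were highest, and their part in the differences below was not tested. In bulk RNA, fewer cells of a type and less RNA per cell cannot be told apart.

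Lymphocytes leave lymphoid organs by following sphingosine 1-phosphate (S1P), which is high in blood and lymph and low in tissue. The transcription factor KLF2 drives expression of the S1P receptor S1PR1 in T cells, and antigen receptor signals reduce KLF2 while inducing CD69, a membrane protein that binds S1PR1 and takes it off the cell surface. CCR7 guides cells to the T cell zone through CCL19 and CCL21, and the IL-7 receptor chain IL7R serves survival of resting T cells and is low on most Tregs.

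RefSeq (GRCm38.p6) gave a promoter window, 250 bases before to 50 after the start site, for 4 of the 7 genes. *S1pr1*, *Ccr7* and *Cd69* had no entry. The RefSeq start sites need not match the gene coordinates given further below. The window of *Il7r* lies wholly within the *Il7r* gene as listed there. The windows of *Klf2* and *Il7r*, which passed a 2-fold filter between PαA and αA, are shown beside those of *S1pr4* and *Klf3*, which did not. They lie at chr8:72318812-72319111 (plus strand) for *Klf2*, chr15:9529827-9530126 (minus) for *Il7r*, chr10:81500088-81500387 (minus) for *S1pr4* and chr5:64803271-64803570 (plus) for *Klf3*. Capitals mark the KLF core CACCC, which reads GGGTG on the other strand.
Klf2: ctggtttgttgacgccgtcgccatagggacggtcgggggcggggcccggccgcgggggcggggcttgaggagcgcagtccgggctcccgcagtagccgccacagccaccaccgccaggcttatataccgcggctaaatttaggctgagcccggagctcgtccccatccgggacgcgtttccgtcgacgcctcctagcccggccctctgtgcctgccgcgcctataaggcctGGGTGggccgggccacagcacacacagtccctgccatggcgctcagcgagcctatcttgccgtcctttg
Il7r: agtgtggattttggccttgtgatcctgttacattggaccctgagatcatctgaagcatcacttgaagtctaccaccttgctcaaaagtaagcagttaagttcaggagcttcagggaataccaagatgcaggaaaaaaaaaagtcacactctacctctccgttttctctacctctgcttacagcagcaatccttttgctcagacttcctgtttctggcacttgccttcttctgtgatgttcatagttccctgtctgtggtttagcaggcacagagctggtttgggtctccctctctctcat
S1pr4: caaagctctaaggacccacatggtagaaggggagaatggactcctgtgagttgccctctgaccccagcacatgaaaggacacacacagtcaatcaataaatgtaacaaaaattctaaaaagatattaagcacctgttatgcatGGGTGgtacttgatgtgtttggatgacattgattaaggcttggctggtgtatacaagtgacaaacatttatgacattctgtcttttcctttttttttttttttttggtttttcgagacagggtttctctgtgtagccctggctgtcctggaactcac
Klf3: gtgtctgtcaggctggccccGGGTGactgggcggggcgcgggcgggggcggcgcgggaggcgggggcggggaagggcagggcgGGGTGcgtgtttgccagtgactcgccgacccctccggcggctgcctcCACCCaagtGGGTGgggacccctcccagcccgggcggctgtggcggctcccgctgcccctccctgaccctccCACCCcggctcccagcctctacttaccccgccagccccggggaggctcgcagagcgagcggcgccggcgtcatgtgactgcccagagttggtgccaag
The *Klf2* window held 1 KLF core, whose first base lay at -19 from the RefSeq start site. The *Klf3* window held 5 KLF cores, *S1pr4* held 1 and *Il7r* held 0. The NFAT core GGAAA was matched 1 time each in *Klf2*, *S1pr4* and *Il7r* and 0 times in *Klf3*, the Blimp-1 core GAAAG 1 time in *S1pr4* alone, and the FOXO site TGTTTAC in none of the 4. All motifs were searched on both strands, and GGAAA and GAAAG can overlap in GGAAAG. Of all 32851 RefSeq windows, 57.5% held the KLF core, 61.3% the NFAT core, 57.3% the Blimp-1 core and 3.65% the FOXO site. A match describes the letters only. G and C made up 69.3% of the bases in the window of *Klf2* and 76.7% in that of *Klf3*, against 41.0% in *S1pr4* and 45.7% in *Il7r*.

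The 2 Krüppel-like factors differed in their course over the libraries. *Klf2* (ENSMUSG00000055148, chr8:72319033-72321656, GRCm38, plus strand, 3 exons) was covered by 2984 (N), 2816 (αA) and 8386 (PαA) exon reads. Its level was 54.3 RPKM (95% Poisson interval 52.4 to 56.3) in N, 56.0 (53.9 to 58.1) in αA and 178 (174 to 182) in PαA. In RPKM, N and αA overlapped within counting error and PαA stood 3.19-fold above αA, with an exact interval of 3.05 to 3.33. These intervals cover counting error only, since PCR copies of one molecule were not told apart. *Klf3* (ENSMUSG00000029178, chr5:64803388-64832901, plus strand, 16 exons), whose product represses transcription at the CACCC motifs that KLF2 also binds, had 2831, 2423 and 2863 exon reads. Its levels of 17.4, 16.3 and 20.6 RPKM in N, αA and PαA were the lowest of the 7 genes in every library, next to *Ccr7* in N, whose interval overlapped. *Klf3* was 1.26-fold higher in PαA than in αA (1.20 to 1.33), so that the level of *Klf3* relative to *Klf2* went from 0.320 in N and 0.291 in αA to 0.115 in PαA.

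Among the S1P receptors, *S1pr1* was stepwise higher and *S1pr4* was higher mainly in PαA. *S1pr1* (ENSMUSG00000045092, chr3:115710433-115715072, minus strand, 2 exons), the receptor through which T cells leave lymphoid organs, had 5025, 7303 and 14658 exon reads, or 55.5, 88.0 and 189 RPKM in N, αA and PαA. It was 1.59-fold higher in αA than in N (1.53 to 1.64) and 2.15-fold higher in PαA than in αA (2.09 to 2.21). *S1pr4* (ENSMUSG00000044199, chr10:81497747-81500132, minus strand, 1 exon), an S1P receptor of lymphoid and myeloid cells, had 5282, 5274 and 8246 exon reads, or 74.5, 81.1 and 136 RPKM. It was 1.09-fold higher in αA than in N (1.05 to 1.13) and 1.67-fold higher in PαA than in αA (1.62 to 1.73), and did not pass 2-fold in either.

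*Cd69* went the other way. *Cd69* (ENSMUSG00000030156, chr6:129267325-129275436, minus strand, 7 exons) had 2845, 2429 and 1451 exon reads, or 56.7, 52.9 and 33.8 RPKM in N, αA and PαA. PαA had 0.639 times the αA level (0.598 to 0.682) and 0.595 times the N level (0.558 to 0.634). It was the only one of the 7 genes with a lower level in PαA than in αA, and it did not reach a 2-fold difference in any comparison.

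*Ccr7* and *Il7r* followed separate courses. *Ccr7* (ENSMUSG00000037944, chr11:99144196-99155077, minus strand, 3 exons) had 1078, 2688 and 3712 exon reads, or 18.3, 49.9 and 73.7 RPKM in N, αA and PαA. Its larger step was between N and αA, at 2.72-fold (2.53 to 2.92), against 1.48-fold (1.41 to 1.55) between αA and PαA. *Il7r* (ENSMUSG00000003882, chr15:9505788-9530176, minus strand, 10 exons) had 8725, 6187 and 14753 exon reads, or 82.9, 64.2 and 164 RPKM. It was lowest in αA, at 0.774 times the N level (0.749 to 0.800), and 2.55-fold higher in PαA than in αA (2.48 to 2.63). All exon reads of the 7 genes were unique. The files list 1 gene within a member, C230096K16Rik in *Klf3*, with an exon length of 0, so no reads could be counted for it.

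**Figure D1:**
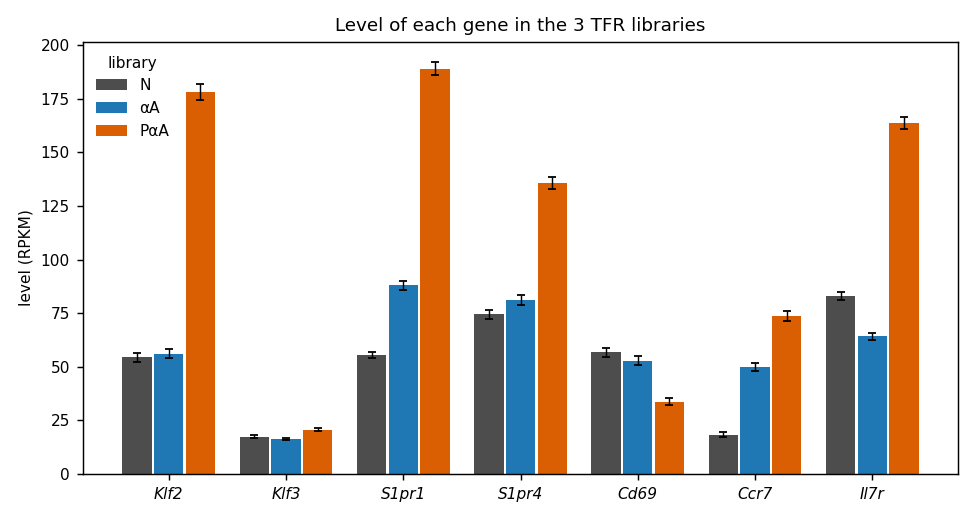
Level of the 7 genes in RPKM, with bars for the N, αA and PαA libraries (1 library each) and 95% Poisson intervals that cover counting error only. *Klf2* stood at 54.3 and 56.0 RPKM in N and αA and at 178 in PαA, while *Cd69* was lowest in PαA at 33.8.

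The order of levels within a library differed accordingly. In N it was *Il7r*, *S1pr4*, *Cd69*, *S1pr1*, *Klf2*, *Ccr7* and *Klf3*, in which *Cd69*, *S1pr1* and *Klf2* overlapped with their neighbours, as did *Ccr7* with *Klf3*. In αA it was *S1pr1*, *S1pr4*, *Il7r*, *Klf2*, *Cd69*, *Ccr7* and *Klf3*, in which *Klf2*, *Cd69* and *Ccr7* overlapped with their neighbours. In PαA it was *S1pr1*, *Klf2*, *Il7r*, *S1pr4*, *Ccr7*, *Cd69* and *Klf3*, with no overlap between neighbours. *Klf2* lay above 84.2% of the 7017 expressed genes by level in N, 85.6% in αA and 95.1% in PαA, and *Cd69* above 85.1%, 84.8% and 76.5%.

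The filter asked for an RPKM above 5 in at least 1 library and a ratio above 2, and follows that of the study with its expression value, for which no unit is stated, read as RPKM. By it, 1 of the 7 genes was higher and 0 were lower in αA than in N. The gene was *Ccr7*. Among the 7017 expressed genes, 1.44% were higher and 2.81% lower by this filter. The log2 ratio of RPKM was 0.04 for *Klf2*, 0.67 for *S1pr1*, 0.12 for *S1pr4*, 1.44 for *Ccr7*, -0.37 for *Il7r*, -0.10 for *Cd69* and -0.10 for *Klf3*. The median over all expressed genes was -0.14, and only 56 expressed genes had a larger ratio than *Ccr7* and 189 a larger one than *S1pr1*. With TMM factors, the median of all genes moved to 0.02 and *Cd69* and *Klf3* turned to 0.06 and 0.06, so no direction is stated for these 2 genes between N and αA. *Klf2* moved to 0.20 with TMM factors, outside its counting interval of -0.03 to 0.12 with RPKM. Globin and other erythroid markers, whose near-identical globin genes share reads, summed to 573 RPKM in N, 2409 in αA and 2153 in PαA, with 5 of 5 expressed markers higher in αA than in N by the filter, and their part in the difference of *Ccr7* was not tested.

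Between PαA and αA, 3 of the 7 genes were higher by the filter, *Klf2*, *Il7r* and *S1pr1*, and 0 were lower, where 2.18% of all expressed genes were higher and 2.45% lower. The log2 ratio was 1.67 for *Klf2*, 1.35 for *Il7r*, 1.10 for *S1pr1*, 0.74 for *S1pr4*, 0.56 for *Ccr7*, 0.34 for *Klf3* and -0.65 for *Cd69*, against a median of -0.06 over all expressed genes. There were 65 expressed genes with a larger ratio than *Klf2*, 97 with a larger one than *Il7r* and 127 with a larger one than *S1pr1*, while *Cd69* lay at the 7.62 percentile. *S1pr1* dropped under 2-fold when TPM replaced RPKM, at a log2 ratio of 0.94. Reads across exon-exon junctions, which only spliced RNA gives, numbered 255 in αA and 696 in PαA for *Klf2*, 821 and 1982 for *Il7r*, and 167 and 367 for *S1pr1*. Their log2 ratios were 1.55, 1.37 and 1.23, all past 2-fold. These reads are part of the exon reads and give no separate check. The counting interval of *S1pr1* on them, a log2 of 0.97 to 1.51, reached below 2-fold.

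PαA against N, which the study did not compare and which shares its libraries with the comparisons above, had 3 of the 7 genes higher by the filter and 0 lower, beside 2.57% of all expressed genes higher and 7.77% lower. *Ccr7* was 4.02-fold higher (3.75 to 4.31), *S1pr1* 3.41-fold (3.30 to 3.52) and *Klf2* 3.28-fold (3.15 to 3.42). *Il7r*, at 1.97-fold (1.92 to 2.03), and *S1pr4*, at 1.82-fold (1.76 to 1.89), lay under the filter and passed it with TMM factors, at log2 ratios of 1.21 and 1.09. The split of all genes into higher and lower depended on the scaling. It was 101 and 197 genes for αA against N, 153 and 172 for PαA against αA, and 180 and 545 for PαA against N with RPKM, and 134 and 112, 172 and 132, and 258 and 251 with TMM factors. With TPM it was 95 and 220, 120 and 263, and 136 and 881.

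**Figure D2:**
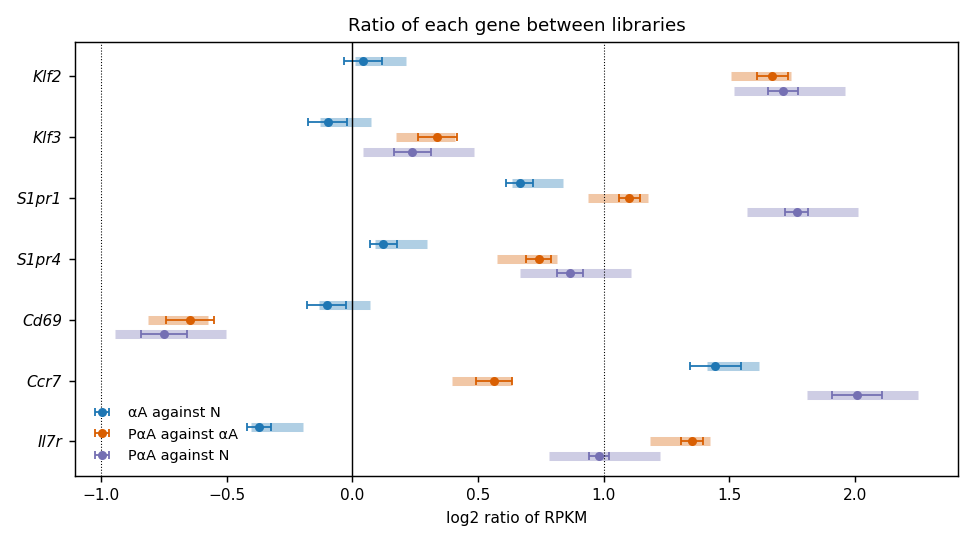
Log2 ratio of RPKM of each gene for the 3 comparisons (points) with exact 95% counting intervals (thin bars) and the range over RPKM, TPM, TMM and median-of-ratios scaling (pale bars), with dotted lines at a 2-fold difference. *Klf2*, *Il7r* and *S1pr1* lay past 2-fold in PαA against αA, at 1.67, 1.35 and 1.10, and *Cd69* lay at -0.65.

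Ratios between genes of the same library need no scaling. Relative to *Cd69*, the level of *S1pr1* was 0.978 (0.934 to 1.02) in N, 1.67 (1.59 to 1.74) in αA and 5.59 (5.30 to 5.91) in PαA. The RNA levels of the 2 genes were thus even in N and far apart in PαA. These are RNA values, and the surface levels of the 2 proteins were not measured. The same ratio was 0.958, 1.06 and 5.28 for *Klf2*, 1.46, 1.21 and 4.85 for *Il7r*, 1.31, 1.54 and 4.02 for *S1pr4*, and 0.323, 0.944 and 2.18 for *Ccr7*. *Klf3* relative to *Cd69* stood at 0.307 and 0.308 in N and αA and at 0.609 in PαA. All 6 genes were higher relative to *Cd69* in PαA than in αA, by 1.98-fold for *Klf3* to 4.99-fold for *Klf2*. That all 6 were higher follows from *Cd69* being the only gene lower in PαA, and is no separate result.

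**Figure D3:**
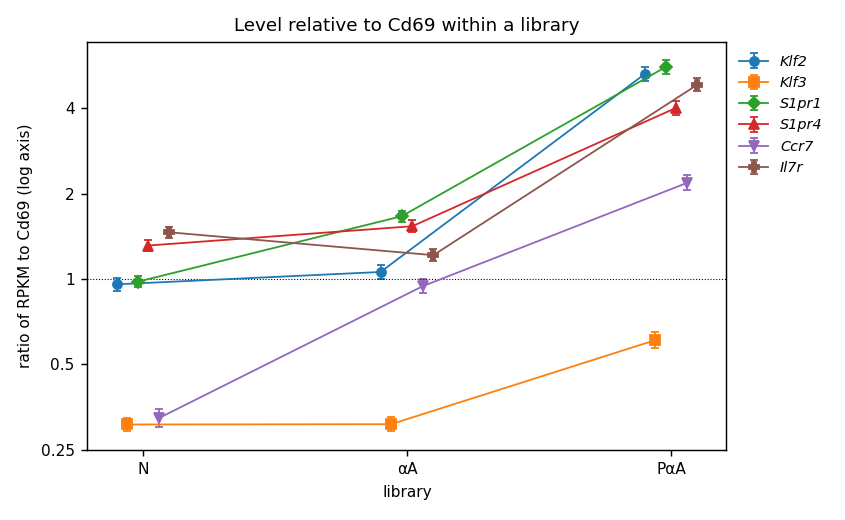
Ratio of the RPKM of 6 genes to that of *Cd69* within each library, on a log axis, with exact 95% counting intervals and lines that join 1 gene over the libraries. *S1pr1* went from 0.978 in N to 1.67 in αA and 5.59 in PαA, and *Klf3* stayed at the lowest ratios in αA and PαA.

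Relative to *Klf2*, no other gene kept one ratio in all 3 libraries. *S1pr1* had 1.02 times the *Klf2* level in N, 1.57 times in αA and 1.06 times in PαA, and the values of N and PαA differed by a log2 of 0.05 (-0.02 to 0.13). *Ccr7* had 0.337, 0.891 and 0.413 times the *Klf2* level, *S1pr4* 1.37, 1.45 and 0.761 times, and *Il7r* 1.53, 1.15 and 0.918 times. In PαA against αA, each of the 6 was lower relative to *Klf2*, by a log2 of -0.32 for *Il7r* to -2.32 for *Cd69*. That each was lower follows from *Klf2* having the largest ratio in that comparison, and is no separate result.

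Intron reads, which come from unspliced or partly spliced RNA in a poly(A) library, did not follow the exon reads in every gene. *Klf2* had 15, 18 and 14 intron reads in N, αA and PαA, a PαA to αA ratio of 0.832 (0.383 to 1.77), whose interval did not hold the 3.19-fold of its exon reads. *S1pr1* had 5, 7 and 34, a ratio of 5.20 (2.27 to 13.9), and *Il7r* 252, 288 and 544, a ratio of 2.02 (1.75 to 2.34). *Klf3* had 84, 70 and 181 intron reads, a ratio of 2.77 (2.09 to 3.70) beside 1.26 for its exon reads, so that its intron reads per 100 exon reads went from 2.89 (2.24 to 3.66) to 6.32 (5.41 to 7.35). Its junction reads, 137 in αA and 219 in PαA, gave a log2 ratio of 0.77 (0.46 to 1.09), above the 0.34 of all its exon reads. Of the *Klf3* intron reads, 67, 68 and 159 were unique in N, αA and PαA. Reads of C230096K16Rik, listed within *Klf3* with an exon length of 0, could be among them, and their part was not tested. The intron counts of *Klf2* and *S1pr1* are small, and only *Il7r* and *Klf3* had more than 36 intron reads in any library.

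Between N and αA, *Il7r* had 1.25-fold more intron reads per library total in αA (1.05 to 1.48) and 0.774 times the exon reads per library total. *Cd69* had 10, 36 and 21 intron reads, and per library total these were 3.93-fold higher in αA than in N (1.91 to 8.88). *Ccr7* had 10, 15 and 0 intron reads, and 0 beside 3712 exon reads in PαA allows up to 0.0808 per 100 exon reads. *S1pr4* is listed with 1 exon and has no intron.

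**Figure D4:**
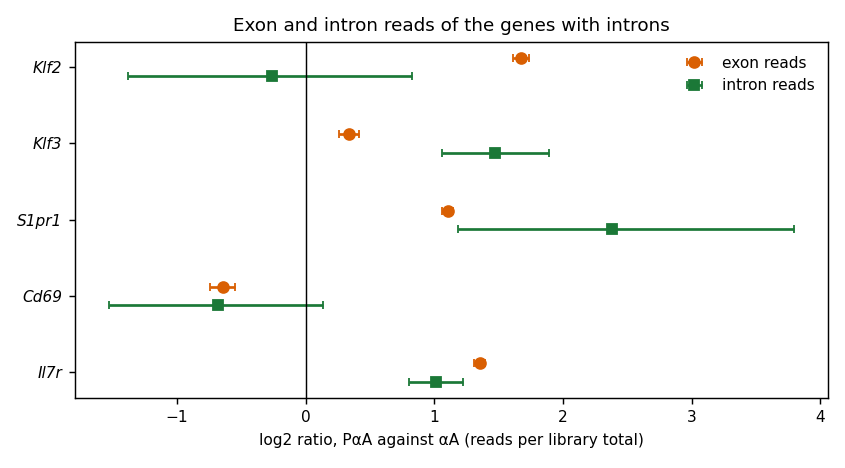
Log2 ratio between PαA and αA of exon reads (circles) and intron reads (squares), each per library total, for 5 genes with intron reads in both libraries, with exact 95% counting intervals. The intron reads of *Klf2* (0.832-fold) lay below its exon reads (3.19-fold), and those of *Klf3* (2.77-fold) above (1.26-fold).

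The genes whose log2 ratios over both steps, N to αA and αA to PαA, lay closest to those of *Klf2* were *Pdlim1*, *Dkkl1*, *Ccl3*, *Tmem176a* and *Ltb4r1*, at distances of 0.149 to 0.231 among 6887 genes with at least 100 exon reads in every library. *Pdlim1*, which encodes a cytoskeletal adaptor, had 10.9, 12.3 and 41.0 RPKM. *Ltb4r1*, a leukotriene B4 receptor, had 15.2, 17.4 and 62.4, and *Ccl3*, an inflammatory chemokine, 25.8, 24.1 and 68.6. Of the other 6 genes, *Il7r* was nearest to *Klf2*, at rank 20 and a distance of 0.522, followed by *S1pr1* at rank 74 and *S1pr4* at rank 109. Among the genes closest to *S1pr1* were *Crip1* (187, 258 and 626 RPKM), *Nme2*, *Ccl4* and *Pparg*, at distances of 0.267 to 0.283. *Nme2* is uncertain because 11.9% of its exon reads were unique. These distances rest on 3 libraries and 2 ratios each.

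The other genes of these pathways were read from lists chosen with earlier results of these data known. Over 9 lists, 101 of 140 genes were expressed, and 0 were higher and 9 lower in αA than in N, 6 higher and 2 lower in PαA than in αA, and 5 higher and 11 lower in PαA than in N. Over all expressed genes the shares higher and lower were 1.44% and 2.81%, 2.18% and 2.45%, and 2.57% and 7.77% in the same order, and the counts of single lists below stand beside these. With TMM factors these splits were 1 and 5, 7 and 2, and 6 and 8, and with TPM 0 and 9, 5 and 5, and 2 and 12. The median log2 ratio of the 101 genes in PαA against αA was -0.06, beside -0.06 over all expressed genes and 0.74 over the 7 genes.

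Of 10 expressed genes for other S1P receptors and S1P metabolism, 1 was higher and 0 were lower in PαA than in αA. It was *Plpp2*, a lipid phosphate phosphatase, with 5.82, 2.77 and 9.35 RPKM. *S1pr2*, the receptor that confines cells to the follicle, was named after its values were seen. It had 5.68, 7.01 and 6.13 RPKM, with neither step past 2-fold, and *S1pr5* had 10 reads or fewer in each library. Of 21 expressed genes of G protein signalling and desensitization, 1 was higher in PαA than in αA, *Rgs2*, and 1 was lower, *Rgs16*. *Rgs16* and *Rgs1*, both of which shorten signals of chemoattractant receptors, were lower at each step. *Rgs16* had 52.5, 29.5 and 11.97 RPKM and *Rgs1* 24.1, 13.0 and 8.12.

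None of the 4 expressed genes for other Krüppel-like factors passed 2-fold in any comparison, with *Klf6* at 43.5, 36.3 and 42.8 RPKM. Of 13 expressed genes upstream of *Klf2*, 1 was higher and 0 were lower in PαA than in αA, with a median log2 ratio of -0.29. The gene was *Sgk1*, a kinase that phosphorylates FOXO proteins, with 3.96, 3.55 and 9.003 RPKM. *Foxo3*, a FOXO factor, had 8.90, 8.62 and 4.37 RPKM, past 2-fold against N with RPKM but not with TMM factors, at -1.03 and -0.80. *Foxo1*, which drives *Klf2* and *Il7r* in resting T cells and was named after its values were seen, had 17.6, 19.5 and 15.9 RPKM.

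Of 19 expressed genes of lymph node entry and quiescence, 0 were higher and 0 lower in PαA than in αA. *Lef1* and *Satb1*, both high in naive T cells, had 21.5, 9.66 and 8.92 and 6.29, 2.68 and 2.03 RPKM, and were lower in αA than in N by the filter, *Lef1* no longer with TMM factors at -0.99. *Tcf7*, named after its values were seen, had 150, 203 and 244 RPKM.

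Of 15 expressed genes of IL-7 receptor signalling and control, 0 were higher and 0 lower in PαA than in αA, with a median log2 ratio of -0.35. *Crlf2*, the chain that pairs with IL7R to bind TSLP, had 136, 112 and 63.7 RPKM, lower in PαA than in αA where *Il7r* was higher, and was lower in PαA than in N with RPKM but within 2-fold with TMM factors, at -1.09 and -0.86. *Gfi1*, a repressor of *Il7r*, had 13.6, 9.79 and 5.40 RPKM.

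Of 12 expressed genes of tissue retention, 1 was higher and 1 lower in PαA than in αA, and 0 and 2 in αA than in N. In PαA against N it was 3 and 4, beside 2.57% and 7.77% of all expressed genes. Between PαA and αA the higher one was *Gpr15*, a homing receptor of the large intestine, with 14.1, 10.1 and 50.1 RPKM. The lower one was *Ahr*, with 8.05, 6.17 and 2.92. Both lie beyond the 4 genes per list chosen by reads and were named after their values were seen. *Itgae*, which encodes the epithelial adhesion chain CD103, had 63.3, 16.8 and 19.3 RPKM, and *Cxcr6*, a chemokine receptor of tissue T cells, 88.9, 143 and 191. The level of *Cxcr6* is uncertain, because only 204 of 5101, 265 of 7546 and 369 of 9371 exon reads were unique. Of 7 expressed genes for CD69 partners, 2 were higher in PαA than in αA. They were *S100a8* (185, 11 and 147 reads) and *S100a9* (235, 0 and 153 reads), which are also neutrophil genes. *Lgals1*, also in this list, had 526, 574 and 1096 RPKM. It lay under the filter in PαA against αA, at 1.91-fold, and past 2-fold with TMM factors, at a log2 of 1.002. Against N it passed the filter, at 2.08-fold. The other 4 of the 7 had a ratio below 1 in PαA against αA. The CCR7 ligands *Ccl19* and *Ccl21a* had 31 reads or fewer in each library, none of them unique.

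**Figure D5:**
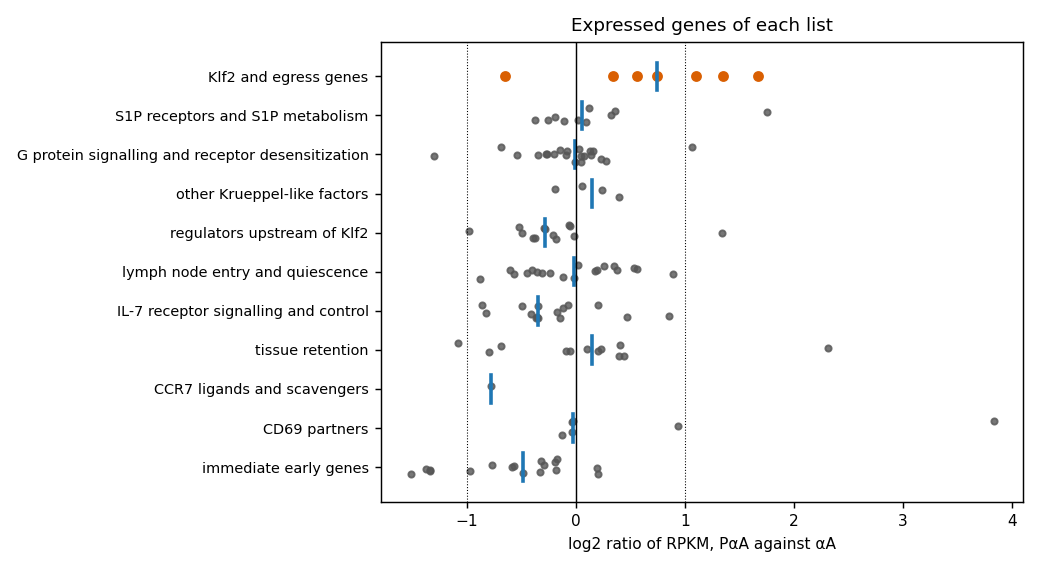
Log2 ratio of RPKM between PαA and αA for the 7 genes (orange) and the expressed genes of each list (grey), with list medians as blue bars and dotted lines at 2-fold. *S100a9*, at 0 reads in αA, has no ratio and is not drawn. The 7 genes had a median of 0.74, the immediate early genes -0.48.

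Immediate early genes are induced by antigen receptor signals, as is *Cd69*. Of 17 expressed, 0 were higher and 4 lower by the filter in PαA than in αA, beside 2.18% and 2.45% of all expressed genes, with a median log2 ratio of -0.48 and a summed level of 1225, 1082 and 826 RPKM in N, αA and PαA. The 4 were *Egr1* (30.2, 33.4 and 12.9 RPKM), *Dusp1* (44.6, 58.6 and 20.5), *Egr2* (21.7, 15.5 and 6.11) and *Nr4a3* (11.4, 6.79 and 2.68, named after its values were seen). *Nr4a1*, at 39.6, 21.3 and 14.2 RPKM, did not pass between PαA and αA, and *Jun* and *Ier2*, also named after their values were seen, had log2 ratios of 0.20 and 0.20. Heat shock genes, which can mark handling as immediate early genes also can, summed to 2160, 2352 and 2340 RPKM, with 0 of 9 past 2-fold in PαA against αA. The part of either list in the difference of *Cd69* was not tested.

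Markers of other cells were read beside these values. Endothelial cells, which also make *Klf2* and *S1pr1*, had 0 of 6 markers expressed and a summed level of 1.78, 1.27 and 1.01 RPKM, with 2 markers at 0 reads in N and in PαA. B cell markers summed to 20.7, 15.1 and 16.2 RPKM, with 1 of 8 at 0 reads in PαA. NK and CD8 T cell markers summed to 16.9, 25.3 and 22.9 RPKM, with some members higher and others lower. *Klrd1* had 38, 169 and 155 reads, *Cd8b1* 400, 486 and 198, and *Cd8a* and *Eomes*, both named after their values were seen, 18, 179 and 231 and 410, 103 and 320. *Klrd1* and *Cd8a* were thus lowest in N, as were *Ccr7* and *S1pr1*, and their part in those differences was not tested. Plasma cell markers summed to 112, 128 and 164 RPKM, with *Jchain* at 44.3, 58.4 and 94.8, *Sdc1* at 0.744, 1.03 and 5.97, *Xbp1* at 46.7, 50.4 and 50.9 and *Irf4* at 20.5, 17.9 and 12.3, the last 2 genes named after their values were seen. Myeloid markers summed to 256, 152 and 222 RPKM, with 1 of 7 at 0 reads in αA. Most of each sum was *Lyz2*, named after its values were seen, at 214, 134 and 184 RPKM. Of 5 expressed myeloid markers, 4 had a ratio above 1 and 1 a ratio below 1 in PαA against αA. The part of myeloid cells in the level of *S1pr4* was not tested. Reads of ribosomal protein genes were 13.6%, 15.4% and 19.8% of exon reads. The part of *Jchain*, *Sdc1* and ribosomal protein genes, all highest in PαA, in the levels of *Klf2*, *S1pr1* and *Il7r* was not tested.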

How the data were processed

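Poly(A) libraries were amplified, sequenced as single reads, trimmed and processed by the authors in CLC Genomics Workbench with default settings on GRCm38. The annotation release is not given in the sources used here, and the kit does not mark strand. The authors deposited, per gene, counts of total and unique exon, junction and intron reads, which are not normalized, and RPKM and TPM made from them. The library totals behind RPKM, recovered from reads, exon length and RPKM, were 29726219, 27239921 and 25465829 for N, αA and PαA.

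Groups followed the labels. The filter was an RPKM above 5 in at least 1 library and a ratio above 2. With 1 library per genotype no test was run. Intervals were Poisson for levels and Clopper-Pearson on the share of reads for ratios, and normal on the log scale for changes of ratios between genes, all at 95%, and a count of 0 was given an upper limit of 3 reads. The filter and intervals were run on simulated counts that held counting error only. That run checks the calculation and cannot speak to spread between mice or to PCR copies. The 7 genes and all lists were chosen with earlier results of these data known. Named were the 7 genes, up to 4 filtered genes per list with the most reads, the 5 genes most alike to *Klf2* and *S1pr1*, the targeted genes and sort markers, genes overlapping a member, and those said to be named after their values were seen. Protein sequences were not used here, and values of some single genes chosen by these rules are not reported here. Alternatives were TPM, TMM factors, median-of-ratios factors, unique reads, a pseudocount of 1, thinned reads, fold thresholds of 1.5 and 3, RPKM thresholds of 1 and 10 and, added after seeing the data, junction reads and unique intron reads. TMM factors came from edgeR 4.0.16 under R 4.3.3, and all else from Python 3.11.15 (scipy 1.17.1, numpy 2.4.6, pandas 2.3.3, matplotlib 3.10.9).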

Additional observations from a re-analysis of the deposited data

How the results depend on the processing

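The 21 log2 ratios were recomputed under 6 settings, 126 values in all, of which 75 stayed within the counting interval, 47 left it and 4 changed sign. The 4 were *Cd69* and *Klf3* in αA against N, which turned to 0.0590 and 0.0625 with TMM factors and to 0.0698 and 0.0734 with median-of-ratios factors. Replacing total by unique reads, a pseudocount of 1 RPKM and thinning kept all 21 ratios within their intervals. With TMM or median-of-ratios factors, 5 of the 7 genes passed 2-fold in PαA against N. At a 1.5-fold threshold 2, 5 and 6 of the 7 genes passed in αA against N, PαA against αA and PαA against N, and at 3-fold 0 passed in the first and 1 in the second. Of the pathway lists, 17, 19 and 37 genes passed at 1.5-fold and 3, 4 and 4 at 3-fold in the same order, and 4 passed in PαA against αA at an RPKM threshold of 10. Depth limits the intron reads of *Klf2*, *S1pr1*, *Ccr7* and *Cd69* and genes near the thresholds. With reads thinned to the smallest library, the pathway genes higher and lower were 1 and 8, 6 and 3, and 5 and 10 in the same order, against 0 and 9, 6 and 2, and 5 and 11. No paired analysis was possible because each genotype has 1 library, and for the same reason no library could be left out.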
